A study of Mus musculus with 2 samples.

Results

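The cells described here are the 73 barcodes that the study's authors classified as T cells in 2 single-cell RNA libraries of mouse aorta, out of 5584 barcodes with a deposited class and 7673 barcodes in the count matrices. They were taken by that class name, spaces trimmed, and every one was found in its count matrix. The control library held 13 T cells among 3060 classified cells and the diabetic library held 60 among 2524. Both libraries came from aortae of male Apoe-/- mice on C57BL/6, a strain without apolipoprotein E that develops atherosclerosis. The diabetic mice were injected from 6 weeks of age with streptozotocin, which destroys insulin-producing cells, on 5 days in a row at a daily 55 mg/kg, and the control mice got citrate vehicle. After 10 weeks of follow-up the mice were 17 weeks old, and the aortae of 4 mice were pooled into each library. The tissue was digested at 37 °C with Liberase, hyaluronidase and DNase and passed through a 40 µm strainer. Live cells were then sorted with 7AAD and calcein and counted with the 10x 3' v2 chemistry. Each group is therefore 1 pooled library, with no replicate of the condition. No test between groups was possible and no p-value is given, and every interval below is a 95% interval that covers counting error only.

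T cells mature in the thymus. Precursors without a co-receptor rearrange the T cell receptor beta gene, pass through a stage with both CD4 and CD8 (double-positive) in which the alpha gene is rearranged, and leave with one co-receptor. RAG1 and RAG2 cut the receptor genes and terminal deoxynucleotidyl transferase, encoded by Dntt, adds bases at the joints, and these genes are switched off in the mature T cells that circulate and enter tissues such as the atherosclerotic aorta. Rearrangement of the alpha locus removes the delta gene segments that lie inside it. NKT cells and B cells are the lymphocyte classes set beside the T cells here. Because the authors' classes came from the same expression values, differences between classes are descriptions.

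The 4 genes taken as markers of the class were chosen with earlier results of these data known, so their presence is a description. Trbc1, a constant segment of the receptor beta chain, had 200 unique molecules (UMIs) in 10 of 13 control T cells and 577 in 37 of 60 diabetic T cells. Cd8b1, the CD8 beta chain, had 29 UMIs in 8 control cells and 116 in 36 diabetic cells. Dntt had 42 UMIs in 9 control cells and 142 in 37 diabetic cells. Rag1 had 6 UMIs in 6 control cells and 18 in 16 diabetic cells. All of these 4 marker genes had UMIs in both libraries, and Rag1 was the sparsest. Neither Rag1 nor Dntt had a UMI in the 83 NKT cells.

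Depth differed widely within the class. It ranged from 923 to 8416 UMIs per control T cell (median 2432, 48048 in all) and from 880 to 17857 per diabetic T cell (median 1423, 194248 in all). The mitochondrial share stayed at or below 6.92% in every T cell. Of 15 barcodes that occurred in both libraries, none was a T cell. Apoe had 48 UMIs over all classified control cells and 63 over the diabetic ones, and none in T cells, and which part of the gene is deleted was not given in the sources used here. No doublet caller was run.

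T cells made up 0.425% of classified control cells (exact binomial interval 0.226 to 0.725) and 2.38% of classified diabetic cells (1.82 to 3.05). The shares lay 1.95 points apart (interval 1.35 to 2.65). The size of this difference relative to the spread between mice cannot be told from pooled libraries. How the aortae were freed of surrounding tissue was not given in the sources used here, and any share of T cells from outside the vessel was not tested. Beside it, NKT cells numbered 32 and 51 and B cells 28 and 30.

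The recombination genes set the class apart first. Rag1 lies at chr2:101638282-101649501 on the minus strand and Rag2 at chr2:101624718-101632529 on the plus strand (GRCm38, GENCODE vM21), so that the pair are neighbours, and Dntt lies at chr19:41029275-41059525. A predicted gene, B230118H07Rik, overlaps both Rag genes. The 250 bases before their RefSeq starts (GRCm38.p6) are shown because each of these genes had transcripts in the class. Capitals mark the E-box CANNTG, a motif read by E proteins, factors that drive thymocyte genes. It is its own reverse complement, so both strands were searched at once.

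Rag1 (chr2:101649533-101649782, minus strand): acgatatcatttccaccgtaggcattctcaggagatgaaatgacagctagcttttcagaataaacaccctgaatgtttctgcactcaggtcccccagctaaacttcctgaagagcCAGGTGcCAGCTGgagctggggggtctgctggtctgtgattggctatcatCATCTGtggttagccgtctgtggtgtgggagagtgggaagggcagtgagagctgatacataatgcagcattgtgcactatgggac

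Rag2 (chr2:101624462-101624711, plus strand): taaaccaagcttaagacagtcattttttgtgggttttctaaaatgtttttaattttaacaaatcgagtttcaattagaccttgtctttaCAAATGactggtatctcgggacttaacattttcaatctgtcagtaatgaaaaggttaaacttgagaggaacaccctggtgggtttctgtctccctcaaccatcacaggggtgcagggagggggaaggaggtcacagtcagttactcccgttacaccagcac

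Dntt (chr19:41029025-41029274, plus strand): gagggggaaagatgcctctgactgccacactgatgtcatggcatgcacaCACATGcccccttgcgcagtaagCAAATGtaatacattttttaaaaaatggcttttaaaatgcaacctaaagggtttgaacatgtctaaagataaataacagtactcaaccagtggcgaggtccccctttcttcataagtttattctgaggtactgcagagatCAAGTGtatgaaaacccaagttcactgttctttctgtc

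The windows of Rag1 and Dntt held 3 matches each and that of Rag2 held 1. Of 32851 windows of this length before RefSeq starts, 66.2% held at least 1 match and 12.2% at least 3, so a match is a description and common.

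In CPM, the counts of a gene per 1000000 UMIs of the class, Dntt stood at 874 in control T cells (Poisson interval 630 to 1182) and 731 in diabetic T cells (616 to 862). Rag1 stood at 125 (45.8 to 272) and 92.7 (54.9 to 146). Rag2 had no UMI in control T cells and 4 UMIs in 4 diabetic cells. Single T cells held 0 to 11 Dntt UMIs in the control library (median 3) and 0 to 17 in the diabetic one (median 1), while no cell held more than 3 Rag1 UMIs. Detection of Dntt was thus frequent and that of the Rag genes thin, at a depth where a missing UMI does not show absence. A UMI of Rag1 or Rag2 was found in 6 of 13 and 18 of 60 T cells, and 5 and 11 of these also had Dntt. Over all T cells Dntt was in 9 of 13 and 37 of 60, so the diabetic overlap lay near Dntt's own share. Ptcra, which encodes the pre-receptor alpha chain of earlier thymocytes, had 1 and 2 UMIs. Of the end-joining genes that repair the cut receptor genes, Xrcc6 (Ku70) had 14 and 49 UMIs in T cells against 1 and 2 in NKT cells, and Lig4 had 1 and 11 against 0 in both.

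At least 1 of 5 genes of developing T cells (Rag1, Rag2, Dntt, Ptcra, Cd8b1) had a UMI in 10 of 13 control T cells (76.9%, exact interval 46.2 to 95) and in 52 of 60 diabetic T cells (86.7%, 75.4 to 94.1). After each cell was thinned to 1000 UMIs, which left out 1 control and 5 diabetic cells, the shares were 75.0% and 78.2%. The same unthinned shares were 12.5% and 5.88% in NKT cells, and 0 of 28 and 3 of 30 B cells had such a UMI. In the smooth muscle class VSMCs-2, which should lack these genes, they were 0.403% of 496 control cells and 0.701% of 856 diabetic cells, at median depths of 5547 and 6523 UMIs. The T cell shares thus lay far above that background in both libraries despite the lower depth. Rag1, Dntt and Cd8b1 were also among the markers chosen with earlier results known, so these shares are a description.

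**Figure D1:**
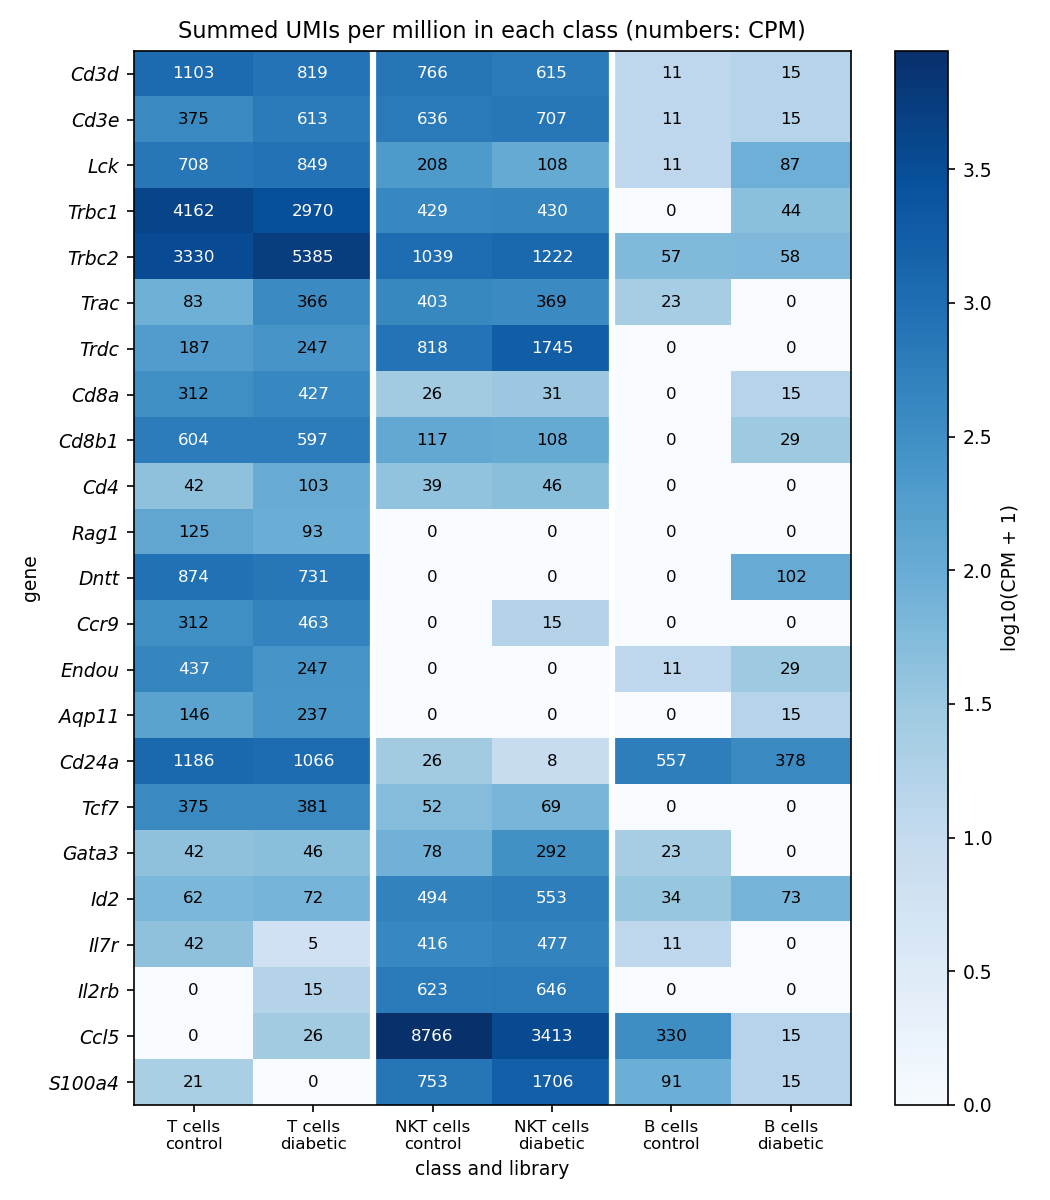
Heat map of CPM over summed UMIs (printed in each field, colour on a log10 scale after adding 1) for 23 genes in T cells, NKT cells and B cells of each library. Rag1, Endou and Aqp11 are at 0 in both NKT columns, where Ccl5 reaches 8766 and 3413.

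Across the whole diabetic library, 2073 genes had at least 20 UMIs over T cells and NKT cells together. A gene was called higher or lower when the CPM of the classes differed at least 2-fold with an interval of the ratio that left out 1. By this rule 421 genes (20.3% of those compared) were higher in T cells and 224 (10.8%) were lower. Against B cells, 447 of 1664 genes (26.9%) were higher and 84 (5.05%) lower, and 232 genes were higher than in both classes. Without mitochondrial and ribosomal protein genes in the totals the split against B cells was 288 higher and 116 lower. Another scaling, TMM, shifted the log2 ratios of all genes by -0.14 against NKT cells and by -0.12 against B cells. In the smaller control library 109 of 834 genes (13.1%) were higher and 113 (13.5%) lower than in NKT cells, and 213 of 728 (29.3%) higher and 56 (7.69%) lower than in B cells, with TMM shifts of -0.31 and -0.77. Of the 232 genes, 74 could be compared with both classes in the control library and 53 were higher there too.

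Ranked by the end of the interval nearest to 1, the genes furthest above the diabetic NKT cells were Ly6d, Dntt, Cd24a, Pclaf, Stmn1, Tubb2b, Igkc, Birc5, Endou and Ccr9. With NKT cells set at a floor of 3 UMIs, Ly6d (167 UMIs against 0) was 37.3-fold higher (interval from 30.0). Dntt (142 against 0) was 31.7-fold higher at the same floor (interval from 25.4), while Tubb2b, a tubulin gene, had 115 UMIs against 1. The furthest below were S100a4, Ccl5, S100a6, Calca and Cxcr6. S100a6, a calcium-binding protein gene, had 7 UMIs against 432, and Calca, the gene of calcitonin gene-related peptide, had 0 against 105. Against B cells the highest were Trbc2 at 92.7-fold (36.1 to 341), Trbc1 at 68.2-fold (23.2 to 331), Stmn1, Cd3g, Pclaf, Thy1, Cd3d, Ctla2a, Tubb2a and Ccr9. Thy1, a surface glycoprotein of thymocytes and T cells, had 109 UMIs against 0. The lowest were the antigen-presentation genes H2-Ab1 (ratio 0.0505), Cd74 (0.0604) and H2-Aa (0.0678), the B cell receptor gene Cd79a (0.0562) and Vpreb3 (1 UMI against 25), a gene of B cell precursors.

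The receptor complex genes separated the class from B cells more than from NKT cells. The 22 listed genes summed to 14173 CPM in control T cells (13129 to 15279) and 15290 in diabetic ones (14745 to 15850), against 7481 and 7794 in NKT cells. Of 19 compared members in the diabetic library, 6 were higher in T cells than in NKT cells and 2 were lower. Trbc2 was 4.41-fold (3.73 to 5.24) and Trbc1 6.90-fold (5.24 to 9.25) higher. Lck, the kinase that starts receptor signalling, was 7.89-fold higher (4.57 to 14.8), with 165 UMIs against 14. The co-stimulatory receptors Cd27 and Cd28 were 4.20-fold and 3.08-fold higher. Themis, needed for thymocyte selection, was 4.02-fold higher on 18 against 3 UMIs (1.17 to 21.3). Zap70, the kinase downstream of Lck, and the phosphatase gene Ptpn22 were lower, at ratios of 0.372 and 0.287. Of the CD3 chains, Cd3d had a ratio of 1.33, Cd3e 0.866 and Cd3g 0.617, none past the 2-fold rule. The median log2 ratio of the list was 0.11 beside 0.31 for all genes compared in the diabetic library, and in the control library it was 0.40 beside 0.05, with 5 of 16 members higher and 3 lower. Against B cells 13 of 16 compared members were higher, and only Cd2, an adhesion receptor gene, was lower (ratio 0.321).

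The constant genes of the receptor chains were unevenly used. Trac, the alpha constant gene (chr14:54220521-54224206), had 4 UMIs in 4 of 13 control T cells and 71 in 31 of 60 diabetic T cells. Its CPM was 83.3 (22.7 to 213) and 366 (285 to 461), beside 403 and 369 in NKT cells. In the diabetic library Trac did not differ between T and NKT cells by the rule (ratio 0.991, 0.677 to 1.46), whereas both beta constant genes did. Trdc, the delta constant gene (chr14:54142851-54148868), had 9 UMIs in 3 control cells and 48 in 11 diabetic cells. It was lower than in NKT cells at 0.142 (0.101 to 0.194), where 7 of 32 and 20 of 51 cells had a Trdc UMI. In the T cells Trac and Trdc were found together in no control cell and in 3 diabetic cells. Trbc1 (chr6:41538218-41539881) and Trbc2 (chr6:41546730-41548352) are nearly identical, so the split of their UMIs is uncertain. Of the T cells with at least 5 UMIs of the pair, 10 of 11 control and 37 of 54 diabetic cells had both, and no cell had Trbc1 alone. The median share of Trbc1 in these cells was 48% and 29.4%. Variable segments were seldom caught by the 3' counts, with no UMI in control and 8 UMIs over 6 diabetic T cells.

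The co-receptors Cd8a (chr6:71373427-71379173) and Cd8b1 (chr6:71322788-71337494), neighbours on chromosome 6, were higher than in NKT cells. In diabetic cells Cd8a was 13.9-fold (5.23 to 52.2) and Cd8b1 5.55-fold (3.18 to 10.5) higher. Cd4 (chr6:124864692-124888221, minus strand) was sparser, with 2 UMIs in 1 control cell and 20 UMIs in 17 diabetic cells, and no cell had more than 3 Cd4 UMIs. UMIs of Cd4 and of a Cd8 gene met in 1 of 13 control T cells (7.69%) and in 15 of 60 diabetic T cells (25.0%, 14.7 to 37.9). After thinning to 1000 UMIs these were 1 of 12 and 7 of 55 cells (12.7%), and with at least 2 UMIs of each no diabetic cell remained. In NKT cells none of 32 and none of 51 cells had both, which allows shares of up to 9.38% and 5.88% at 3 cells (exact upper ends 10.9% and 6.98%), and in VSMCs-2 none of 496 and none of 856 had both. Cd8 without Cd4 was found in 7 control and 26 diabetic T cells, Cd4 without Cd8 in 0 and 2, and neither in 5 and 17. Among the 15 diabetic cells with both, the median depth was 1206 UMIs, 11 had Dntt, 6 had a Rag gene, 4 had Trac and 14 had Ccr9, Endou or Aqp11. Among the 26 with Cd8 alone, 21 had Trac, 16 Dntt and 9 a Rag gene. Trac detection was thus more frequent in the Cd8-only cells (21 of 26) than in the cells with both co-receptors (4 of 15), a difference seen in 1 library, noticed in the data and not tested.

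**Figure D2:**
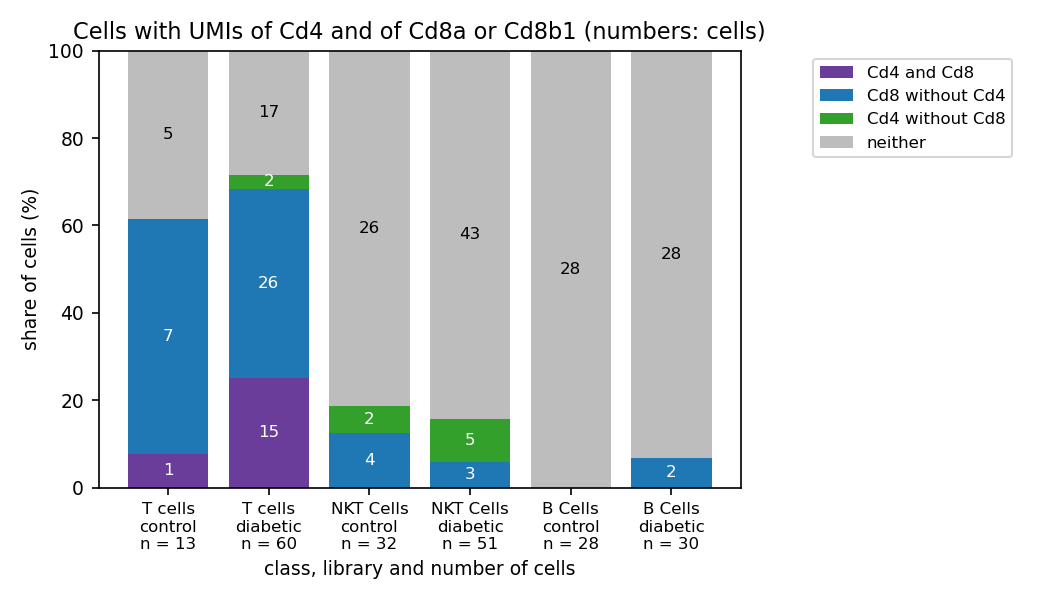
Stacked bars give the share of cells (percent) of each class and library with UMIs of Cd4 and a Cd8 gene, of Cd8 only, of Cd4 only or of neither, with cell numbers inside. The T cell bars hold 1 and 15 cells with both co-receptors, and the NKT and B cell bars hold none.

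Genes known from the double-positive stage came next. The list of 13 such genes summed to 4454 CPM in control T cells and 3640 in diabetic T cells, against 338 and 377 in NKT cells and 2036 and 1787 in B cells. Among diabetic cells 7 of the 8 members that could be compared were higher than in NKT cells, and the median log2 ratio was 3.39 beside 0.31 for all genes. Against B cells 5 of 7 were higher, with a median of 1.5 beside 0.67. Ccr9, the receptor for the thymic and gut chemokine CCL25 (chr9:123678439-123784330), had 15 UMIs in 7 control and 90 in 39 diabetic T cells, against 0 and 2 UMIs in NKT cells. Its ratio in the diabetic library was 30.1 (8.10 to 253). Endou, an endoribonuclease gene (chr15:97711015-97731339), had 21 and 48 UMIs and none in NKT cells, 10.7-fold higher in the diabetic library (interval from 8.38). Aqp11, an aquaporin gene (chr7:97724006-97738289), had 7 and 46 UMIs and none in NKT cells, 10.3-fold higher in the diabetic library. The ratios of Endou and Aqp11 set the class without UMIs at a floor of 3 UMIs. The 3 genes were low in single cells, with at most 8 UMIs of Ccr9, 6 of Endou and 4 of Aqp11 in a cell, and at least 1 of them was found in 10 of 13 and 51 of 60 T cells.

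Cd24a and Ly6d, surface proteins shared by immature T and B cells, were high in T cells and, unlike Ccr9, also in B cells. Cd24a had 57 and 207 UMIs in T cells, 2 and 1 in NKT cells and 49 and 26 in B cells, with a ratio to NKT cells of 139 (24.6 to 5502) in the diabetic library. Ly6d had 87 and 167 UMIs in T cells, 1 and 0 in NKT cells and 115 and 79 in B cells. Against B cells Ly6d was not called (ratio 0.749, 0.57 to 0.992). Satb1, a chromatin organiser of thymocytes, had 4 and 67 UMIs in T cells, and its ratio to NKT cells of 1.79 (1.12 to 2.97) in the diabetic library was under 2-fold.

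Transcription factors went in both directions. Of 12 compared factors in the diabetic library 5 were higher than in NKT cells and 3 lower, beside 20.3% and 10.8% of all genes compared. The median log2 ratio of the list was 0.42 beside 0.31 for all genes. Its median thus lay near the background, while both called shares lay above theirs, on few genes and in opposite directions. In the control library 1 of 4 compared factors was higher and 1 lower, with a median of -0.20 beside 0.05. Tcf7 and Lef1, partners of the T cell programme of early and double-positive cells, were 5.51-fold and 4.69-fold higher. Myb, which supports double-positive survival, was 18.1-fold higher on 54 against 2 UMIs (4.77 to 153). Sox4 was 7.59-fold higher at the floor of 3 UMIs, with 34 UMIs against 0, and Id3, which restrains E proteins, was 5.36-fold higher. Gata3, Ikzf3 and Id2, factors of helper, differentiated or innate-like lymphocytes among others, were lower at ratios of 0.159, 0.0343 and 0.130. Zbtb16, the factor of innate-like NKT cells, had no UMI in T cells.

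Genes of mature and effector cells were scarce. Of 7 compared genes of mature naive T cells none was higher and 4 were lower than in NKT cells, with a median log2 ratio of -2.63. Il7r, the receptor chain for interleukin 7, had 2 and 1 UMIs against 32 and 62. S1pr1, which carries mature thymocytes out of the thymus, had 2 and 2 UMIs and Klf2, which drives it, 1 and 3. Of 11 compared effector genes 10 were lower and the median log2 ratio was -5.32. Ccl5, a chemokine of effector lymphocytes, had 0 and 5 UMIs against 675 and 444. S100a4 had 1 and 0 against 58 and 222, and Cxcr6, a receptor of tissue lymphocytes, had none against 21 and 80. MHC class I genes were lower as well, 4 of the 5 compared. H2-K1 had 34 and 53 UMIs against 198 and 270, and B2m, its light chain, 106 and 321 against 436 and 627, at diabetic ratios of 0.131 and 0.343. Of the 10 natural killer and NKT genes, 3 had UMIs in control T cells (53 UMIs in 8 of 13 cells) and 5 in diabetic ones (105 UMIs in 27 of 60 cells), against 307 and 231 UMIs in NKT cells. Tyrobp (32 and 32 UMIs), Fcer1g (12 and 41) and Nkg7 (9 and 30) were above 0, whereas Klrb1c, Klrk1 and Ncr1 were at 0. Fcer1g and Nkg7 were higher than in diabetic B cells, at 3.63-fold (1.32 to 14.0) and, with B cells at the floor of 3 UMIs, 3.54-fold. The regulatory T cell list had 22 and 97 UMIs, led by Ikzf2 with 11 and 51, and its factor Foxp3 was at 0.

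Cell cycle genes were higher than in NKT cells and, with an exception, than in B cells. All 10 compared S-phase genes of the diabetic library were higher than in NKT cells (median log2 ratio 3.31), and 3 of 4 G2/M genes. Against B cells 8 of 9 S-phase and 3 of 4 G2/M genes were higher, and Cenpa, a centromere gene, was lower (ratio 0.425, 0.225 to 0.812). Only 1 S-phase gene (Pcna, higher than in both classes) and no G2/M gene reached 20 UMIs in the control comparisons. The S-phase list summed to 2289 and 2090 CPM, against 312 and 215 in NKT cells and 227 and 203 in B cells. Stmn1, a tubulin-binding protein gene of dividing cells, had 371 UMIs against 6, a ratio of 41.4 (18.8 to 114). Pclaf, which binds PCNA at replication forks, had 110 against 0, 24.6-fold higher at the floor of 3 UMIs (interval from 19.6). Birc5 (survivin), a chromosome segregation gene, had 48 against 0, 10.7-fold higher at the same floor (interval from 8.38). The cycle transcripts were concentrated in a minority of cells, since at least 10 cycle UMIs were found in 3 of 13 control and 13 of 60 diabetic T cells.

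The T cells were divided by depth into a shallow and a deep part. A line at 3000 UMIs put 6 of 13 and 20 of 60 cells in the deep part. No cell lay between 2432 and 3964 UMIs in the control library or between 2886 and 3552 in the diabetic one. Wider gaps lay among the deeper diabetic cells (8186 to 10206 and 11565 to 17857 UMIs), so the line is a cut and not a natural division. All 3 control and 13 diabetic cells with at least 10 cycle UMIs were deep, and a deeper cell has more UMIs of any gene, so levels are given in CPM. The S-phase list was 8.10-fold (3.07 to 30.3) higher in the deep cells of the control library and 4.93-fold (3.38 to 7.46) in those of the diabetic library, and the G2/M list 2.83-fold (1.02 to 10.9) and 19.1-fold (7.36 to 71.0). The receptor complex went the other way, at 0.425 (0.364 to 0.497) and 0.459 (0.427 to 0.494), as did the co-receptors, at 0.280 (0.15 to 0.522) and 0.280 (0.212 to 0.369). Cd8b1 stood at 0.161 and 0.178 and Ccr9 at 0.204 and 0.130 of the shallow level. Rag1 was at 0.0758 in the diabetic library (0.0141 to 0.268), while Dntt was at 0.612 (control) and 1.16 (0.785 to 1.75, diabetic), so Dntt did not follow Rag1. Trac was found in no deep control cell and at 0.139 (0.0774 to 0.238) in the diabetic library. Trdc was 4.17-fold higher there (1.52 to 16.0), in 9 of 20 deep against 2 of 40 shallow cells.

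Of 1347 genes compared in the diabetic library, 118 (8.76%) were higher in deep cells and 178 (13.2%) lower, and of 342 in the control library 43 (12.6%) were higher and 17 (4.97%) lower. In the diabetic library 6 of 9 S-phase and 4 of 4 G2/M genes were higher, and 9 of 14 receptor complex genes and 4 of 6 double-positive genes (Ccr9, Endou, Aqp11, Satb1) were lower. Dntt was in 16 of 20 deep and 21 of 40 shallow diabetic cells, and a Rag gene in 5 of 20 and 13 of 40. Genes of the B cell list, which takes in the antigen-presentation genes Cd74 and H2-Aa, were also called higher in deep cells. In the control library these were all 4 compared (Ighm, Igkc, Cd74, H2-Aa), with 93.7% of the list's UMIs in 1 deep cell. In the diabetic library they were 3 of 5 (Cd79a, Ighm, Igkc). Plac8, a gene of lymphoid progenitors and myeloid cells among others, had 69 UMIs in deep against 0 in shallow control cells and 222 against 2 in diabetic cells. Without the 4 deep cells that had no receptor constant UMI, the deep-to-shallow ratio of the B cell list went from 7.79 to 0.264 in the control library and from 2.06 to 1.32 in the diabetic one. The receptor complex ratios were then 0.524 and 0.585 and the S-phase ratios 10.5 and 5.17. Whether the deep barcodes hold 1 cell each was not tested.

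**Figure D3:**
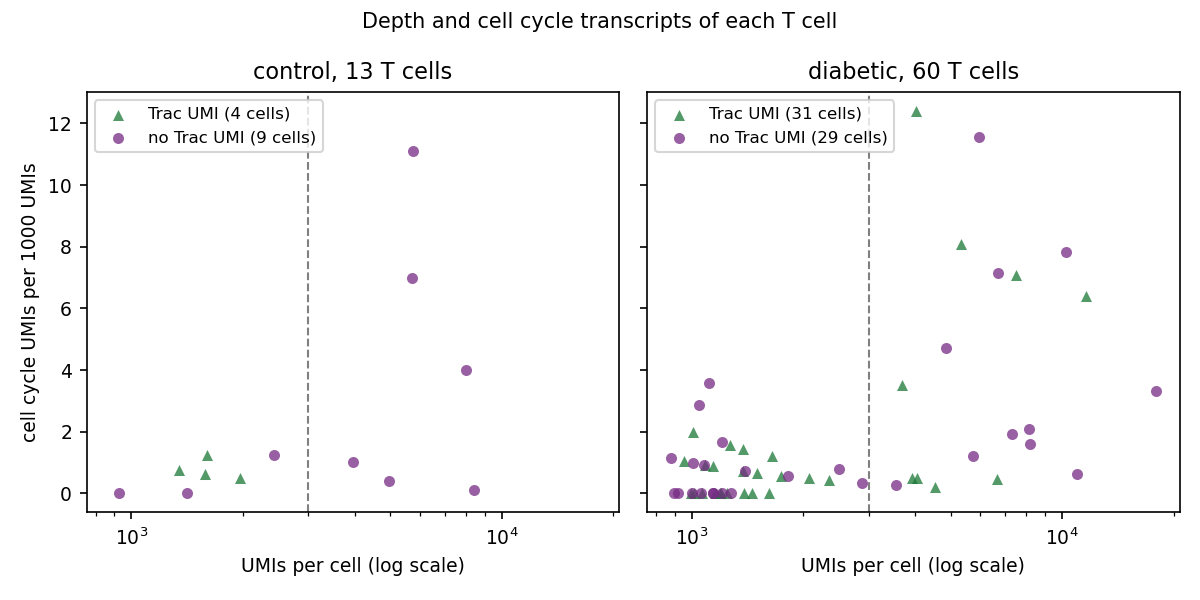
Each point is a T cell, with its UMIs on a log scale against the cycle UMIs of 29 genes per 1000 UMIs, by library and by whether Trac was detected, with a dashed line at 3000 UMIs. All points above 4 lie to the right of the line, and the Trac cells of the control library all lie to its left.

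**Figure D4:**
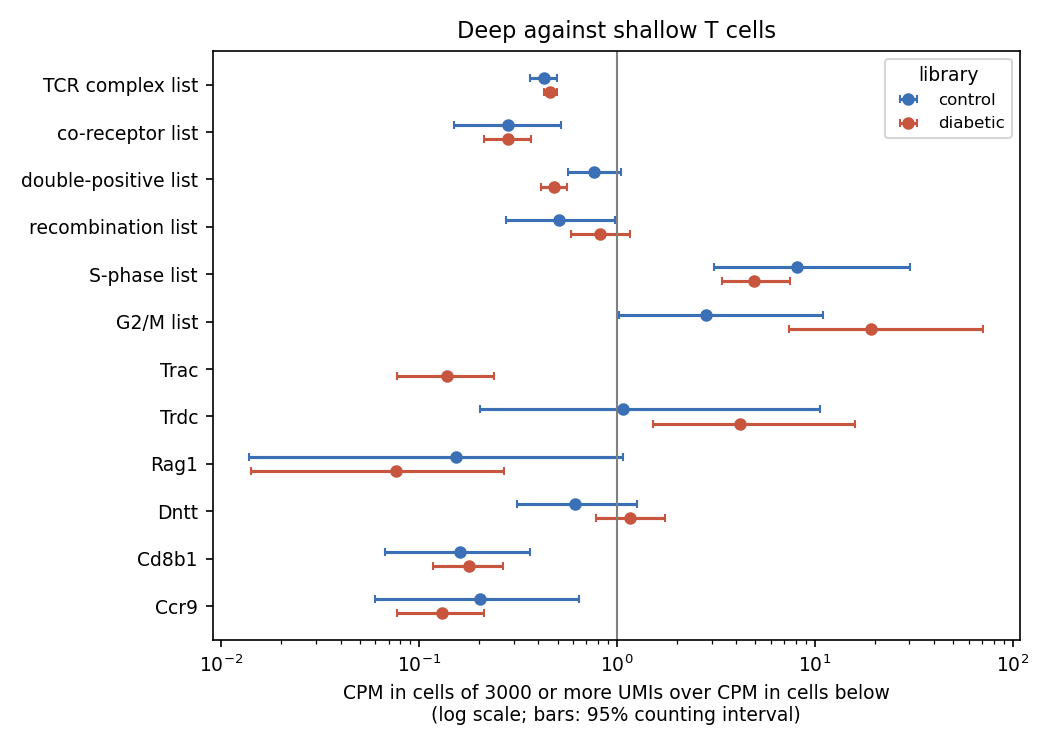
Ratio of CPM in deep over shallow T cells (log scale, bars for the 95% counting interval) for 6 gene lists and 6 genes. The receptor and co-receptor lists lie below 1 and both cycle lists above 1 in both libraries, and Trac has no control point because no deep control cell had a UMI.

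A few cells with the T cell class lacked its transcripts. Trac, Trbc1 and Trbc2 had no UMI in 1 control and 3 diabetic cells, all deep. The control cell (8416 UMIs) held 66 Igkc, 37 Ighm and 11 Cd79a UMIs, immunoglobulin and B cell receptor genes. The deepest diabetic cell (17857 UMIs) held 88 Igkc and 23 Cd79a UMIs and no CD3 UMI. A diabetic cell of 8125 UMIs held 17 Dntt and 61 Plac8 UMIs without a CD3 UMI. Igkc in diabetic cells was 29.0-fold higher in T cells than in NKT cells, and 67.7% of its 130 UMIs came from 1 cell. The B cell list, led by Cd74, had 397 UMIs in 9 of 13 control and 683 in 29 of 60 diabetic T cells. In the control library 94% of these UMIs came from 1 cell. Macrophage genes had 55 and 210 UMIs, with 4 of 6 and 6 of 6 members above 0 and 10 or more UMIs in 1 and 9 cells. Smooth muscle, fibroblast and endothelial lists each summed to 2 to 36 UMIs. Of the thymic epithelium list only the chemokine gene Ccl25 was above 0, with 1 UMI in each library. The part of these transcripts in the levels above was not tested.

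Rag1 or Dntt was found most often per cell in the T cells, but most of its UMIs lay outside the class. T cells held 48 control and 160 diabetic UMIs of the pair of genes, macrophages 85 and 99, and barcodes without a class 190 and 229. A UMI of either gene was found in 10 of 13 control T cells (76.9%) and 44 of 60 diabetic T cells (73.3%), or 50% and 54.5% after thinning to 1000 UMIs. Among macrophages it was found in 29 of 510 control cells (5.69%) and 43 of 229 diabetic cells (18.8%), or 2.01% and 8.04% after thinning. All of those 29 and 43 macrophages also had a UMI of a receptor constant gene, against 77 of 481 and 37 of 186 of the other macrophages. Their median depth was 8255 and 6550 UMIs against 4349 and 3645.5 in the other macrophages. Barcodes without a class had it in 66 of 1155 (5.71%) and 57 of 934 (6.10%), and the MoDC class in 3 of 27 (11.1%) and 4 of 30 (13.3%). In VSMCs-2 it was found in none of 496 control cells, which allows up to 0.605% at 3 cells (exact upper end 0.741%), and in 0.117% of 856 diabetic cells.

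**Figure D5:**
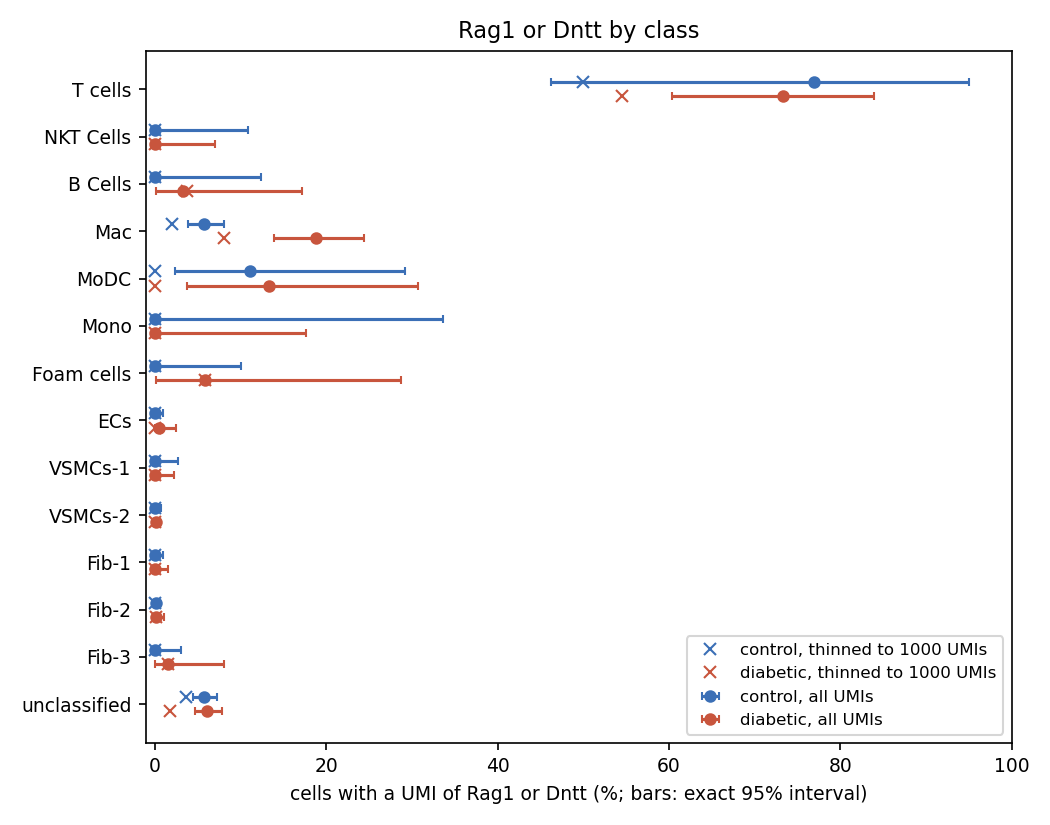
Share of cells (percent) with a UMI of Rag1 or Dntt by class and library, as points with exact 95% intervals for all UMIs and crosses after thinning to 1000 UMIs. T cells lie at 76.9% and 73.3%, and macrophages (Mac) at 5.69% and 18.8% come after them among the named classes of over 50 cells.

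Most stage genes did not pass the size rule between the libraries. Of 1697 genes with at least 20 UMIs over both T cell classes, 44 (2.59%) were at least 1.5-fold higher in the diabetic cells with an interval that left out 1, and 76 (4.48%) were lower. On simulated counts the same rule called 2.82% of unchanged genes. Among the compared stage genes 0 of 2 recombination genes, 0 of 3 co-receptors, 3 of 9 double-positive genes and 1 of 6 factors were called. The last pair of lists lay above the background shares, on few genes and without a common direction. The double-positive calls were Satb1 (higher) and Endou and Ly6d (lower), with a list median log2 ratio of -0.15 beside 0.04. Myb (higher) was the only factor called. The split depended on the scaling: TMM shifted the log2 ratios of all genes by 0.31 and gave 146 higher and 39 lower. Dntt had a ratio of 0.836 (0.589 to 1.21), Rag1 0.742 (0.282 to 2.28) and Cd8b1 0.989 (0.654 to 1.54), none called, and these wide intervals do not show equal levels. Trac was 4.39-fold higher (1.64 to 16.6), Satb1 4.14-fold (1.54 to 15.6), Myb 3.34-fold (1.23 to 12.7) and Trbc2 1.62-fold (1.37 to 1.92). Its near-identical neighbour Trbc1 went the other way, at 0.714 (0.607 to 0.842), and was not called. Among shallow cells Trbc1 was called lower, at 0.541 (0.417 to 0.708). Because the split of UMIs between Trbc1 and Trbc2 is uncertain, the Trbc2 ratio does not show a difference in beta constant transcripts as a whole. Ly6d was lower at 0.475 (0.364 to 0.623) and Endou at 0.565 (0.332 to 0.994). The Endou call was lost under TMM, without mitochondrial, ribosomal protein and haemoglobin genes in the totals, and at a 2-fold rule. It was also lost without its leading cell, without the deepest T cells, and among deep or shallow cells alone. The Satb1 call was lost among deep cells alone. Trbc2 was no longer called among shallow cells (1.21, 0.953 to 1.55), as a mean of single-cell CPM (1.45) or at a 2-fold rule. The control values of Trac, Satb1 and Myb rest on 4 UMIs each.

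Some of these genes also differed between the libraries outside the T cells. In all other classified cells Trac had a ratio of 1.54 (1.21 to 1.97), Myb 2.38 (1.60 to 3.61), Ly6d 0.385 (0.323 to 0.459) and Satb1 1.01 (0.82 to 1.24). Within the NKT cells Trac had a ratio of 0.916 (0.572 to 1.49), and 67 of 1221 genes (5.49%) were higher and 90 (7.37%) lower in the diabetic cells by the same rule. The difference between these ratios and those of the T cells was not tested.

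By rank, the highest ratios also took in Trmt112, a methyltransferase partner gene that overlaps Esrra and Prdx5 on the other strand, at 12.4 (2.12 to 498) on 50 against 1 UMI, beside 0.953 in the other classified cells. H2afy, a histone variant gene, had 30 against 0 UMIs, 2.47-fold higher at the floor of 3 UMIs (interval from 1.89), beside 1.07 elsewhere. Slc25a3, the mitochondrial phosphate carrier gene, was 2.87-fold higher (1.51 to 6.14), beside 1.73 (1.65 to 1.82) elsewhere. The lowest were S100a8, S100a9, S100a6, Ighm and Crip1. Much of each count came from a single control cell, which was not the same cell for every gene. The leading cell of each gene held all 104 control UMIs of S100a8, 96.6% of the 59 of S100a9 and 93.3% of the 45 of S100a6. For Ighm it held 80.4% of 46 UMIs and for Crip1 53.7% of 283. The leading cell of S100a8 and S100a9 had 41 receptor constant UMIs, and that of Ighm had 0. Without the T cells that had no receptor constant UMI, Ighm (ratio 0.975) and Crip1 (0.713) lost their calls. S100a8 and S100a9 kept theirs, and S100a6 had too few UMIs to be compared. Haemoglobin genes, which have no role in T cells, stood at 229 CPM in control and 973 CPM in diabetic T cells, beside 156 and 1161 in NKT cells, and their part in the ratios was not tested.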

How the data were processed

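The deposited files were 2 matrices of UMI counts per gene and barcode and 2 tables of the authors' cell classes. Cell Ranger 3.1.0, Partek and the mm10 build are named for these counts per the submitters' processing notes, and the annotation release was not given in the sources used here. No deposited column was left unmapped. Genes were taken by symbol as deposited, and positions came from GENCODE vM21, where all 300 listed genes matched. Counts were summed over the cells of a class and scaled to CPM (Python 3.11.15, numpy 2.4.6, scipy 1.17.1, pandas 2.3.3). Intervals were exact Poisson for CPM, Clopper-Pearson for shares and conditional binomial for ratios, at 95%. They treat UMIs as independent. A class with no UMI was set at 3 UMIs in ratios, and the end of the interval nearest to 1 lay nearer to 1 than such a ratio. Genes entered a comparison with at least 20 UMIs over both sides. A call needed a 2-fold difference between classes or depth parts, or a 1.5-fold difference between libraries, with an interval that left out 1. On simulated counts 94.9% of 4-fold and 41.7% of 2-fold changes were called for T against NKT cells (2117 genes). The shares were 92.6% and 34.4% for T against B cells and 95.3% and 47.3% between libraries (1702 genes each). Of the unchanged genes 2.13%, 1.85% and 2.82% were called in either direction, in the same order. Simulated UMIs were independent draws, so UMIs concentrated in single cells were not covered. Cells were thinned to 1000 UMIs with a fixed seed. Named genes were members of the recombination, co-receptor, pre-receptor, double-positive and factor lists with at least 10 UMIs, the 10 highest and 5 lowest ratios per class comparison, the 5 highest and 5 lowest between libraries, and up to 4 genes of each other list. Rag2 and Ptcra, under that minimum, were named after their values were seen, as were Plac8 and other genes outside the rule. Gene lists and members were chosen with earlier results of these data known. Myeloid cells with T cell transcripts and barcodes without a class were not reassigned.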

Additional observations from a re-analysis of the deposited data

Results flagged for a closer look

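Barcodes without a deposited class were not used in the comparisons above, but some carried the transcripts of the T cell class. UMIs of 2 or more of 7 thymocyte genes were found in 30 of 1155 such barcodes of the control library and in 67 of 934 of the diabetic library, and in no VSMCs-2 cell of either library. All of the 30 and 67 barcodes had a UMI of a receptor constant gene. The macrophage gene C1qa was found in 29 of the 30 and 65 of the 67. Their median depth was 18167 and 16896 UMIs, and 29 of the 30 and 66 of the 67 held over 3000 genes, a size reached by 73 and 114 of all barcodes without a class. Among the T cells 12 of 13 and 49 of 60 met the same gene rule.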

How the results depend on the processing

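No paired analysis was possible because each group is 1 pooled library, and for the same reason no replicate could be left out. Settings based on cells without a receptor constant UMI, and on deep or shallow cells alone, were chosen after seeing the data. With all barcodes as the denominator the diabetic T cell share was 1.74%. The diabetic share with a developing T cell gene was 58.3% after thinning to 500 UMIs, 75.0% with at least 2 UMIs and 75.0% without Cd8b1. The share with Cd4 and a Cd8 gene was 0% in control and 6.67% in diabetic cells at 500 UMIs, 12.7% in diabetic cells at 1000 UMIs, and 0% there with at least 2 UMIs of each. Without mitochondrial and ribosomal protein genes 288 genes were higher than in B cells, and at 10 or more UMIs 157 were lower. At 50 or more UMIs, where fewer genes are compared, 168 were higher and 106 lower than in NKT cells, 215 higher and 29 lower than in B cells, and 107 higher than in both. The control library gave 109, 113 and 213 for the first 3 of these and 87 for both. Between libraries TMM gave 146 higher and 39 lower, 50 or more UMIs gave 40 lower, and shallow cells alone gave 15 and 22. Leaving out each gene's leading cell gave 122 and 9, which by construction takes a larger part of the 13 control cells. As means of single-cell CPM the co-receptor list was 1397 (control) and 1769 (diabetic), the effector list 737 and 287 and the S-phase list 1496 and 1286, and in diabetic cells the double-positive list was 4966 and the G2/M list 497. Without the deepest 10% of T cells the diabetic co-receptor, double-positive, effector and G2/M lists were 1539, 4476, 251 and 919 CPM, and the control effector and S-phase lists 631 and 2776. Without cells lacking a receptor constant UMI the diabetic co-receptor and double-positive lists were 1348 and 4178, and the control effector and S-phase lists again 631 and 2776, since the same control cell was left out. The same setting turned the deep-to-shallow ratio of the B cell list in control cells from 7.79 to 0.264, while 18 of 23 deep-to-shallow ratios stayed within their first interval. The cause of the other shifts was not tested.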

Other observations

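Bcl2l11 (Bim), a cell death gene acting in thymic selection, had 10 and 57 UMIs in control and diabetic T cells, against 3 and 7 in NKT cells. Itm2a, a gene induced by receptor signals in thymocytes, had 5 and 29 UMIs and was 9.71-fold (2.46 to 84.0) higher than in NKT cells in the diabetic library. Cd69 and Nr4a1, activation genes, were lower there, at ratios of 0.293 and 0.440. Ikzf2 (Helios), a factor of thymocytes and regulatory T cells, had 11 and 51 UMIs in T cells. The 7 genes that glucocorticoids act through or induce summed to 791 and 710 CPM in T cells, close to the 805 and 753 CPM of NKT cells. All 4 compared AP-1 genes were lower than in NKT cells, with Junb at 1 and 20 UMIs against 87 and 191.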
